A study of Mus musculus with 2 samples.

Results

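The transcripts of 9 genes of polyamine synthesis and turnover (Odc1, Amd1, Srm, Sms, Oaz1, Oaz2, Azin1, Sat1 and Smox) were examined in single cells of mouse prostate lesions. The genes were chosen by name, as a pathway, with earlier results of these data known. They make up 9 of the 19320 features in the table of the whole series. The mice were R26 mTmG/hAR:Osr1 Cre/+. Their Cre, made from the Osr1 locus, turns on a human androgen receptor transgene (hARtg) together with membrane green fluorescent protein (mGFP) in Osr1-expressing cells and their descendants. Both tissues carried this genotype, and no control genotype was analysed here. The tissues were 1 library of prostatic intraepithelial neoplasia (PIN) from mice aged 6 months and 1 library of prostatic adenocarcinoma (PCa) from mice aged 12 months. The mice were of mixed C57BL/6 and 129S1/SvImJ background. Neither the labels nor the column names tie a cell to PIN or PCa. Cells are therefore given by the ending of their barcode, as barcode set 1 and barcode set 2, and neither set is assigned to a tissue. Lesion, age and library cannot be told apart in a comparison of the sets. Features named EGFP and ARQ were taken as mGFP and hARtg from their names.

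Polyamines (putrescine, spermidine and spermine) are small charged molecules that bind nucleic acids and that growing cells need. Odc1 makes putrescine from ornithine, Amd1 makes the aminopropyl donor, Srm adds it to form spermidine, and Sms adds another to form spermine. The antizymes Oaz1 and Oaz2 bind ornithine decarboxylase and send it to the proteasome, and Azin1 captures antizyme and so frees the enzyme. Sat1 acetylates spermidine and spermine for export or breakdown, and Smox oxidises spermine back to spermidine. The prostate is among the tissues richest in polyamines, which it secretes into seminal fluid, and in rodents androgen is known to raise Odc1 and Amd1 in it. Several of these enzymes are also controlled through translation and protein breakdown, which transcript counts do not show.

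Set 1 held 6332 cells with 134850345 unique molecular identifiers (UMIs, each marking 1 captured RNA molecule), and set 2 held 9410 cells with 187280119. The median cell had 17235 UMIs in set 1 and 14824.5 in set 2, and 67 barcodes were shared between the sets. After removal of doublets, 6177 and 9235 cells were left. Clusters named from marker genes gave 1537 luminal-like, 1702 basal-like and 181 proximal or urethral luminal-like cells in set 1, and 7691, 361 and 76 in set 2. Luminal-like cells were thus 24.9% of set 1 and 83.3% of set 2. Clusters that met no naming rule are called by their leading genes. These were a cluster led by Krt6a and Clu, 2 shallow clusters with lymphocyte genes (led by Ccl5 and Tnfrsf9, or by Rgs1 and Ramp3), a cluster led by Apod and Bgn that held all fibroblast markers, and a cluster led by Rgs5 and Col1a1. Levels below are CPM, the UMIs of a gene summed over the cells of a group and scaled to a common total, with exact Poisson 95% intervals. Each set is 1 library, so the intervals reflect only the counting of molecules and no difference was checked against replicates. Levels are compared for 1 gene between groups of cells, not between genes.

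Odc1, the entry enzyme of the pathway (chromosome 12, 17544808 to 17551502 in GRCm38.p6, the build of all gene positions here), was lower in luminal epithelium than in most other cells. Luminal-like cells held 112 CPM (109.6 to 115) in set 1 and 47.6 CPM (46.5 to 48.6) in set 2. The levels in basal-like cells were 136 CPM (132 to 141) and 267 CPM (248 to 288) in the same order. Leukocyte-like cells held 363 and 329 CPM, endothelium-like cells 276 and 437 CPM, and the cluster led by Apod and Bgn 364 and 356 CPM. Endothelium-like cells of set 1 were only 40, so their levels here and below are less certain. The cluster led by Ccl5 and Tnfrsf9 had 475 CPM of Odc1 over its 737 cells of set 1. Its 25 cells of set 2 gave 1577 CPM, a value from few and shallow cells. In both sets the luminal-like level was thus below that of the immune, endothelial and stromal groups.

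Amd1, which supplies the aminopropyl group (chromosome 10, 40287458 to 40302188), had the opposite layout and was an epithelial transcript in these cells. In luminal-like cells its level was 295 CPM (290.4 to 300.0) for set 1 and 98.6 CPM (97.1 to 100.1) for set 2. Basal-like cells held 428 and 332 CPM, and proximal or urethral luminal-like cells 357 and 195 CPM. In leukocyte-like cells it was 53.7 and 30.1 CPM, and in endothelium-like cells 55.8 and 60.9 CPM. The epithelial groups of set 1 lay above every immune, endothelial and stromal group. In set 2 the luminal-like cells, at 98.6 CPM, and the cluster led by Krt6a and Clu, at 96.7 CPM, overlapped with the cluster led by Apod and Bgn, at 97.8 CPM. Amd2, an intronless near-copy of Amd1, and pseudogenes of Odc1 and Oaz1 share sequence with their parents, so reads may have been dropped or split, and the levels of these genes are less certain.

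Srm, spermidine synthase (chromosome 4, 148591513 to 148594619), differed by less than 1.5-fold between luminal-like and basal-like cells of a set. Luminal-like cells held 96.7 CPM (94.03 to 99.5) in set 1 and 107 CPM (106 to 109) in set 2, and basal-like cells held 77.5 and 125 CPM. Proximal or urethral luminal-like cells stood apart from the other epithelium, with 30.8 and 35.6 CPM. The lowest Srm levels were in the 2 clusters with lymphocyte genes in set 1, at 17.7 and 9.09 CPM.

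Sms, spermine synthase (chromosome X, 157443851 to 157492287), showed the widest range of the 9 genes over the epithelium. Basal-like cells held the same level in both sets, 64.5 CPM (61.2 to 67.9) and 63.1 CPM (53.9 to 73.4). Luminal-like cells held 23.6 CPM (22.2 to 24.9) in set 1 and 5.35 CPM (5.001 to 5.71) in set 2, the latter from 894 UMIs in 7691 cells. Proximal or urethral luminal-like cells lay between them at 25.5 and 30.3 CPM, and leukocyte-like cells had 47.3 and 38.5 CPM. Set 2 luminal-like cells were therefore lower than every other group of at least 50 cells, apart from the cluster led by Krt6a and Clu in set 2 at 6.10 CPM (4.02 to 8.87), whose interval overlapped theirs.

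**Figure D1:**
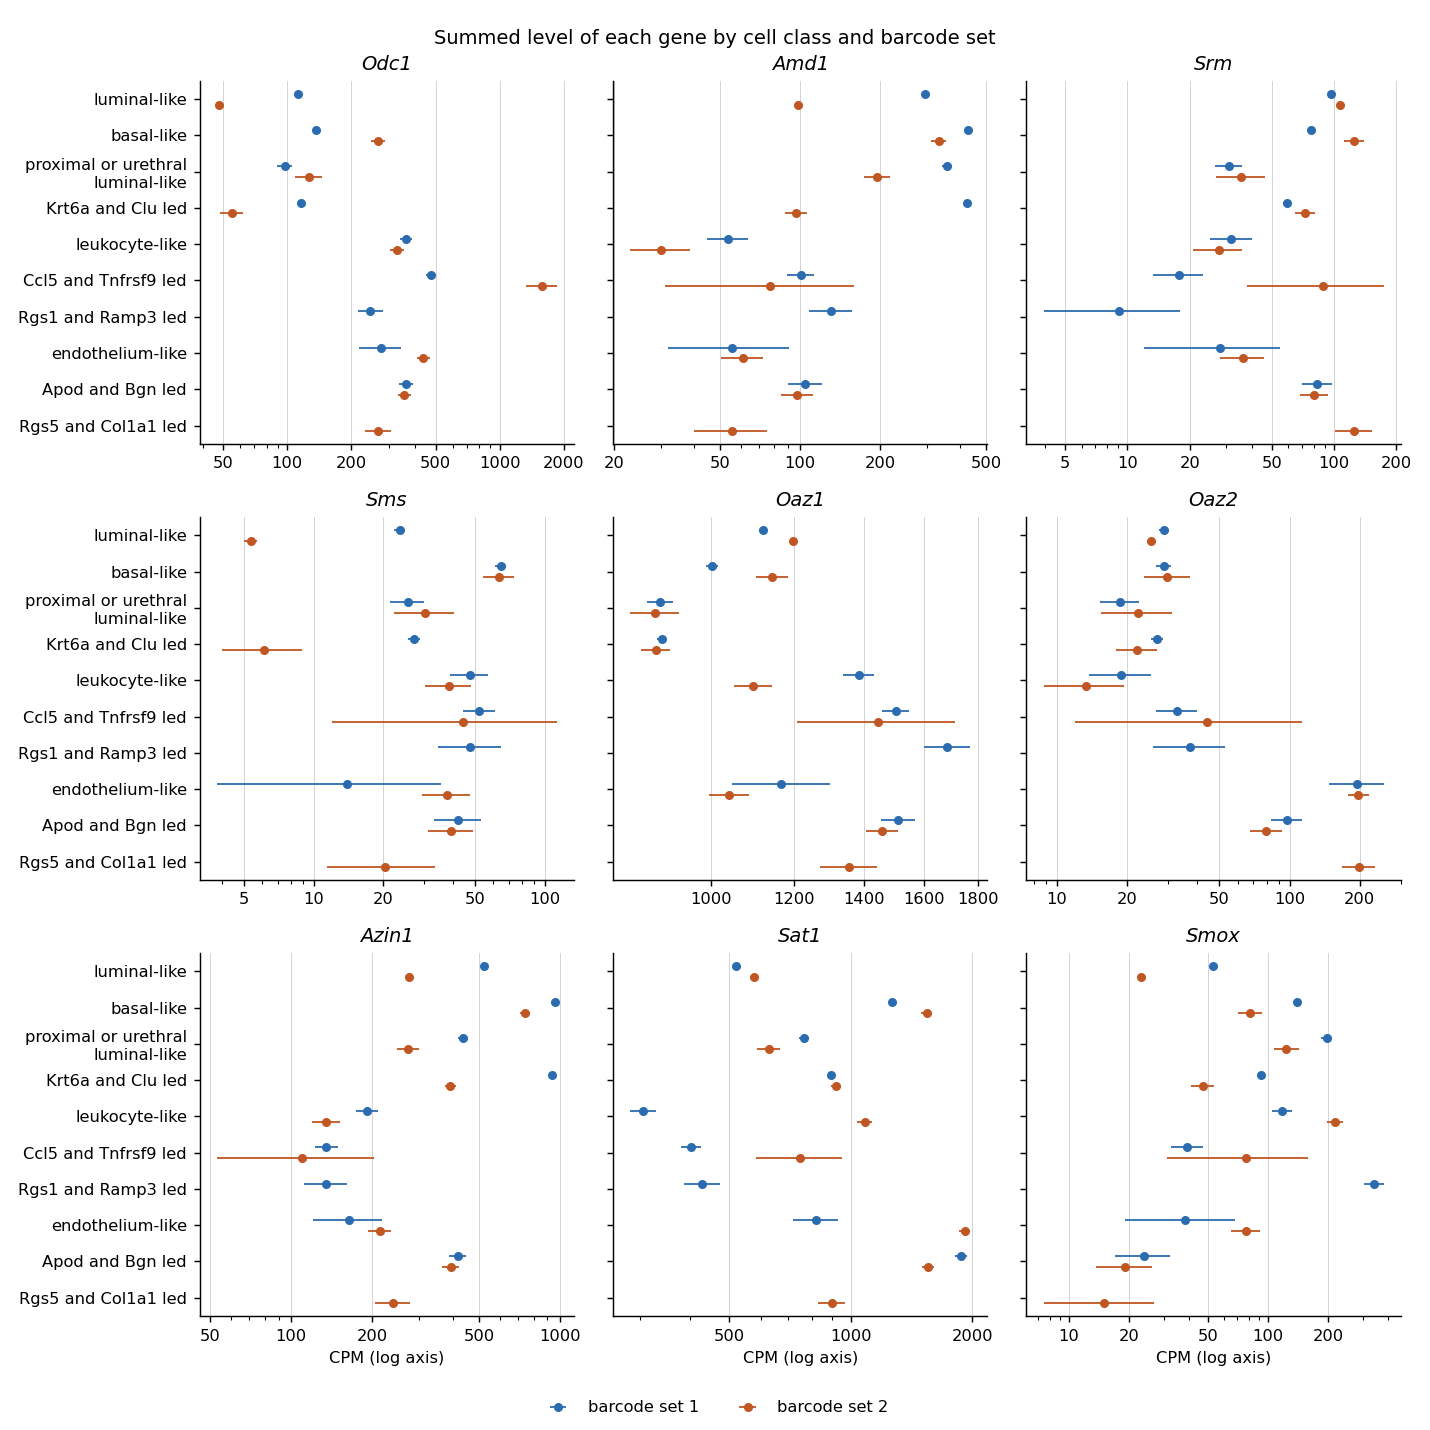
Level of each of the 9 genes in CPM (log axis) by cell class or cluster, with barcode set 1 in blue and set 2 in orange; bars are exact Poisson 95% intervals, and groups under 20 cells or with no UMI are not drawn. Sms sat at 64.5 and 63.1 CPM in the basal-like class and at 23.6 and 5.35 CPM in the luminal-like class (sets 1 and 2), while Oaz1 stayed within 884 to 1683 CPM in every group drawn.

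Among the regulators of ornithine decarboxylase, both antizymes differed by less than 1.5-fold between luminal-like and basal-like cells of a set, while Azin1 did not. Oaz1, the main antizyme (chromosome 10, 80826656 to 80829290), was at 1121 and 1198 CPM in luminal-like cells of sets 1 and 2 and at 1002 and 1145 CPM in basal-like cells. Oaz2, its paralogue (chromosome 9, 65676548 to 65690300), held 25.4 to 29.9 CPM in these 4 groups. Outside the epithelium Oaz2 was several-fold higher, at 195 and 198 CPM in endothelium-like cells, 198 CPM in the set 2 cells of the cluster led by Rgs5 and Col1a1, and 97.1 and 79.6 CPM in the cluster led by Apod and Bgn. Azin1, the antizyme inhibitor (chromosome 15, 38487430 to 38519294), was an epithelial transcript like Amd1. It reached 963 CPM in basal-like cells of set 1 and 933 CPM in the set 1 cells of the cluster led by Krt6a and Clu, against 191 CPM in leukocyte-like and 164 CPM in endothelium-like cells of that set. Luminal-like cells held 524 CPM (517 to 530.1) in set 1 and 275 CPM (272 to 277) in set 2.

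Both genes of polyamine turnover were higher in basal-like than in luminal-like cells. Sat1, the acetyltransferase (chromosome X, 155213126 to 155216449), was at 519 and 574 CPM in luminal-like cells and at 1263 and 1543 CPM in basal-like cells. Its highest levels were in the cluster led by Apod and Bgn, at 1882 and 1552 CPM, and in endothelium-like cells of set 2, at 1917 CPM. Smox, spermine oxidase (chromosome 2, 131491858 to 131525183), was at 52.9 and 22.9 CPM in luminal-like cells and at 140 and 81.6 CPM in basal-like cells. Among epithelial groups Smox was highest in proximal or urethral luminal-like cells, at 197 and 124 CPM, and among the others it was highest in the cluster led by Rgs1 and Ramp3, at 341 CPM in its 218 cells of set 1.

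Within a set, the luminal-like and basal-like levels were compared directly. A gene was called when the 2 levels differed at least 1.5-fold and the 95% interval of the log2 ratio, from the conditional binomial distribution, left out 0. In set 1, 4 of the 9 genes were called lower in luminal-like cells, where 24.9% of 8835 features tested were, and 0 were called higher, where 35.5% were. These were Sms at a log2 ratio of -1.45 (-1.57 to -1.34), Smox at -1.40 (-1.48 to -1.33), Sat1 at -1.28 (-1.31 to -1.26) and Azin1 at -0.88 (-0.90 to -0.85). In set 2, 6 of 9 were called lower against 28.7% of features, and 0 higher against 34.5%. The differences there were -3.56 for Sms (-3.80 to -3.31), -2.49 for Odc1 (-2.60 to -2.38), -1.83 for Smox, -1.75 for Amd1, -1.44 for Azin1 and -1.43 for Sat1. The median log2 ratio of the 9 genes was -0.54 in set 1 and -1.44 in set 2, beside 0.11 and 0.09 over all features tested. Srm, Oaz1 and Oaz2 did not pass 1.5-fold in either set, with log2 ratios from -0.23 to 0.32. Odc1 at -0.28 and Amd1 at -0.54 also stayed under it in set 1.

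**Figure D2:**
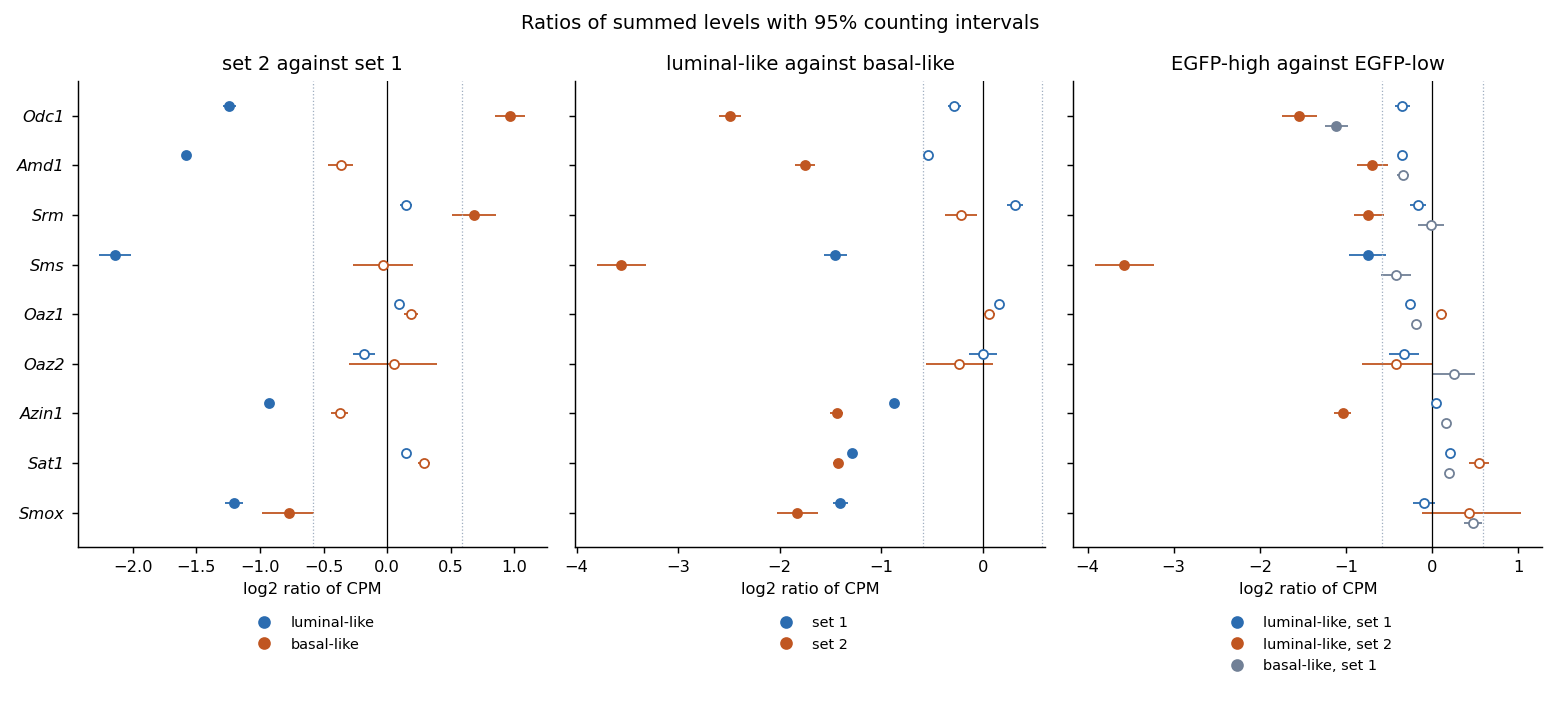
Log2 ratio of CPM for each gene in the comparisons of barcode sets (left), of luminal-like with basal-like cells (middle) and of EGFP-high with EGFP-low cells (right). Filled points passed the 1.5-fold limit (dotted lines) with a 95% counting interval, drawn as bars, that left out 0; Sms in luminal-like cells lay farthest left in each panel, at -2.14, -3.56 and -3.58, and Oaz1 was never filled.

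The promoters of the genes were then read for 2 sequence motifs tied to prostate growth control, the E-box CACGTG (the core site of Myc-Max pairs) and the androgen receptor motif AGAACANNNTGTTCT with its 6-base arm AGAACA. RefSeq windows in GRCm38.p6, from 250 bases before to 50 bases after the annotated start, were at hand for 7 of the 9 genes, and not for Srm and Azin1. On both strands, CACGTG stood in 1 window, the more upstream of a pair for Sms, and 7.15% of 32851 windows of all genes held it. The full androgen receptor motif was in none of them and in 0.00913% of all windows. The arm AGAACA was in the windows of Sat1 and Oaz2 and in 19.0% of all. A stretch of 60 bases around the Sms match, at chrX:157492451-157492510 on the minus strand and with the match beginning at position -196 from the start, is shown because Sms varied most in these cells, and the capitals mark CACGTG.
Sms: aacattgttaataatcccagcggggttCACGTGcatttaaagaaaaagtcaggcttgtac
A match describes the letters of this window and shows no binding. In luminal-like cells Myc itself was at 163 CPM in set 1 and 273 CPM in set 2, and a link between Myc and Sms was not tested.

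Luminal-like cells were clustered again, without the polyamine genes among the features, to see how the levels vary inside the class. This gave 10 subclusters, of which 4 held at least 50 cells in set 1 and 9 did so in set 2. In set 1 these were L1 (led by Svs5 and Pate4), L5 (Msmb and Wfdc3), L6 (9530053A07Rik, Ren1 and Tgm4) and L7 (Wfdc2 and Cxcl2). None of the 10 leading genes of L7 was a luminal marker, while Krt15 is a basal and Psca a proximal or urethral luminal marker, so L7 is given only by its leading genes. It made up 522 of the 1537 luminal-like cells of set 1 and 78 of the 7691 of set 2. At a finer resolution of 1.0, 383 of these 522 cells fell into clusters named proximal or urethral luminal-like, and 416 did so without integration. Set 2 was made mostly of L0 (Gulo and Npl), L1, L2 (Cxcl14 and Gja1), L3 (Tgm3 and Defa21) and the proliferating L4 (Ube2c and Stmn1), and apart from L1 each of these held at most 32 cells of set 1. The sets thus drew their luminal-like cells largely from different subclusters.

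In set 2, Sms separated the subclusters 27.6-fold. L6 held 49.7 CPM (44.3 to 55.5), L7 21.9 CPM and L8 (Sbpl and Sbp) 16.3 CPM. The other 6 subclusters lay between 1.80 CPM in L3 and 4.28 CPM in L4, so the 2 ranges did not meet. In set 1 the spread was 2.53-fold, from 13.8 CPM in L1 through 18.2 CPM in L5 and 24.97 CPM in L7 to 34.9 CPM in L6. L6 was the highest in both sets.

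Odc1 followed the same split in set 2, with 131 CPM in L6, 125 CPM in L7 and 128 CPM in L8 and with 34.8 to 53.9 CPM in the other 6. In set 1 it was flat, from 101 to 120.1 CPM. Azin1 was at 499 CPM in L6, 611 CPM in L7 and 495 CPM in L8 of set 2, and at 172 to 355 CPM elsewhere. Amd1 was highest in L8, at 262 CPM, and lowest in L1, at 72.7 CPM. L6, L7 and L8 were thus the subclusters of set 2 with the most Odc1, Sms, Azin1 and Amd1. They also had the lowest EGFP, at 19.1, 54.6 and 17.5 UMIs per 10000 against 88.6 to 131 in the other 6, and the part of EGFP in these differences was not tested.

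The remaining genes had other layouts. Srm was highest in L6 and L5 in both sets, at 183 and 180 CPM in set 2 and 123 and 135 CPM in set 1, and lowest in L7, at 64.4 and 63.7 CPM. Sat1 was lowest in L8, at 256 CPM, and L5, at 270.2 CPM, and highest in L3, at 734 CPM, in set 2. Smox reached 84.0 CPM in L7 against 16.9 CPM in L5 in set 1, a 4.98-fold range, and 37.2 CPM in L7 against 4.76 CPM in L8 in set 2. Oaz1 and Oaz2 stayed under a 2-fold range in both sets, with Oaz1 ranging 1.35-fold and 1.56-fold. The proliferating L4 of set 2 had 89.1 CPM of the division marker Mki67. The other subclusters of that set with at least 50 cells had 1.42 to 7.09 CPM. L4 had Odc1 at 53.9 CPM, Srm at 121 CPM and Sms at 4.28 CPM, all inside the range of those other subclusters. With L6, L7 and L8 set aside, its Odc1 and Sms were the highest among these subclusters.

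**Figure D3:**
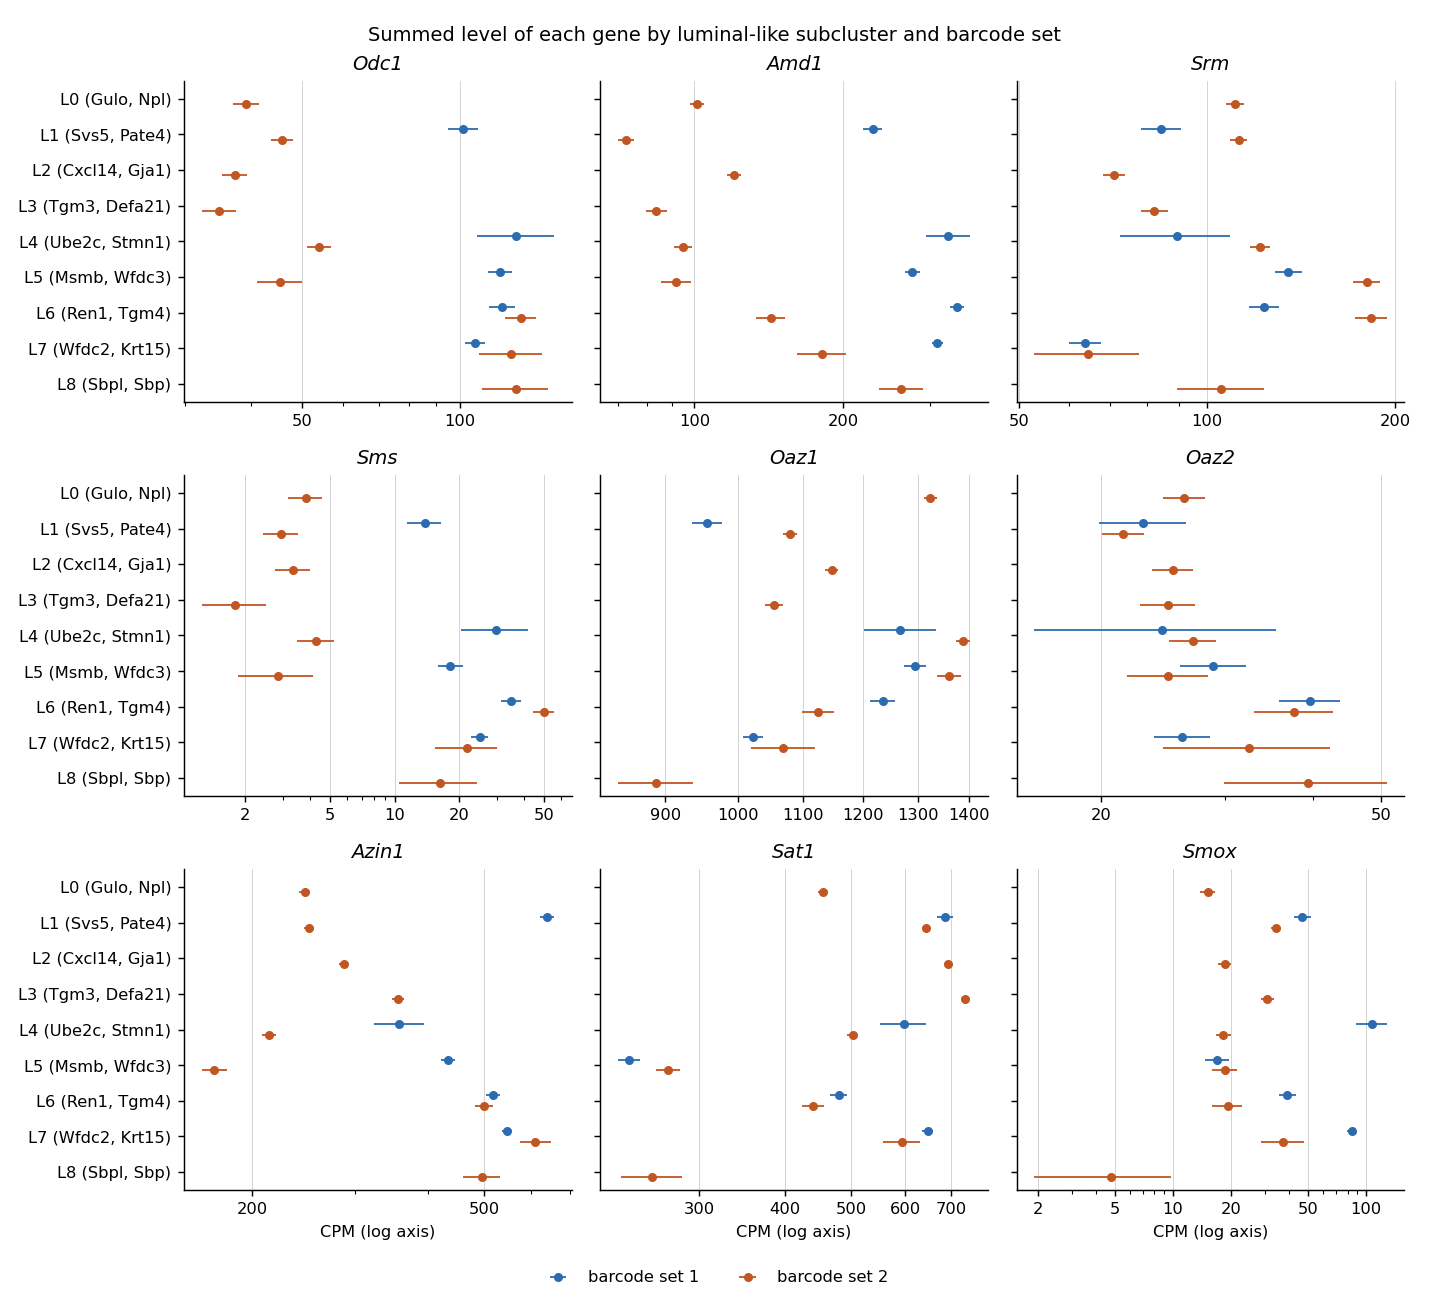
Level of each gene in CPM (log axis) in luminal-like subclusters L0 to L8, named with 2 of their leading genes, for barcode set 1 (blue) and set 2 (orange); bars are exact Poisson 95% intervals and groups under 20 cells are not drawn. In set 2 the levels of Odc1, Sms and Azin1 in L6, L7 and L8 stand to the right of the other 6 subclusters, and Amd1 lies to the left of set 1 in every subcluster drawn for both sets.

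L6, which had the highest Sms of the subclusters, was then set against all other luminal-like cells of its set. This comparison was not planned beforehand, so its calls restate the levels above and are no separate support. L6 was called higher for 5 of 9 genes in set 2, where 27.3% of features were, and for 2 in set 1, where 19.0% were. The 5 were Sms at a log2 ratio of 3.78 (3.58 to 3.98), Odc1 at 1.56 (1.45 to 1.66), Azin1 at 0.91, Srm at 0.81 and Oaz2 at 0.60. The 2 in set 1 were Sms at 0.75 (0.57 to 0.93) and Oaz2 at 0.60. Odc1 was 0.12 in L6 of set 1, inside the 1.5-fold limit. L6 cells held secretory transcripts, with Pbsn at 8008 and 7632 CPM and Tgm4 at 11358 and 15265 CPM in sets 1 and 2. Tgm4 was among the leading genes of L6, while Pbsn was among those of L5. L5 held 18.2 and 2.85 CPM of Sms in sets 1 and 2, and 119 and 45.4 CPM of Odc1.

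Between the sets, 5 of the 9 transcripts were called lower in luminal-like cells of set 2 and 0 were called higher. Of 8944 features tested, 27.1% were called lower and 16.7% higher. Sms was at 5.35 against 23.6 CPM, a log2 ratio of -2.14 (-2.27 to -2.01), and Amd1 was at 98.6 against 295 CPM, a ratio of -1.58 (-1.61 to -1.55). Odc1 followed at -1.24 (-1.29 to -1.19), Smox at -1.20 (-1.28 to -1.13) and Azin1 at -0.93 (-0.95 to -0.91). Srm, Sat1 and Oaz1 were at 0.15, 0.15 and 0.10, and Oaz2 was at -0.19, all under the 1.5-fold limit. Without L7 the same 5 genes were called, with Sms at -2.14 and Smox at -0.65, and Srm was at -0.09. The median over the 9 was -0.93, beside -0.14 over all features. Set 2 luminal-like cells also had 10097 against 1564 CPM of EGFP, 343 against 5415 CPM of Pbsn and 801 against 2572 CPM of Tgm4. Their part in the polyamine values was not tested.

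Because the sets held different subclusters, the comparison was repeated inside epithelial groups with at least 50 cells in both sets. These were L1, L5, L6, L7, the cluster led by Krt6a and Clu, and the proximal or urethral luminal-like cells. Leukocyte-like cells and the cluster led by Apod and Bgn also held at least 50 cells in both sets, and no ratio was taken for them. In L1, 4 genes were lower in set 2, where 22.0% of features were, and these were Sms (-2.23), Amd1 (-1.66), Azin1 (-1.36) and Odc1 (-1.15). The same 4 were lower in L5, where 20.1% of features were, at -2.68, -1.59, -1.33 and -1.39. They were also lower in the cluster led by Krt6a and Clu, where 24.7% of features were, at -2.16, -2.13, -1.25 and -1.09, together with Smox at -0.97. In these 3 groups the lower Odc1, Amd1, Sms and Azin1 of set 2 were therefore present inside the group.

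The other groups gave a shorter list. In L6, 2 genes were lower in set 2, where 15.8% of features were, namely Amd1 at -1.26 (-1.36 to -1.15) and Smox at -1.03 (-1.33 to -0.73). Sms there was 0.51 and Odc1 0.12. In L7 the same 2 were lower, at -0.78 and -1.17, where 11.4% of features were, with Odc1 at 0.23 and Sms at -0.19. In proximal or urethral luminal-like cells Amd1 (-0.87), Azin1 (-0.68) and Smox (-0.67) were lower, where 9.09% of features were, with Odc1 at 0.38 and Sms at 0.25. None of the 9 was called higher in set 2 in any of the 6 groups, where 17.1% of features were in L1, 22.7% in L5, 18.5% in the cluster led by Krt6a and Clu, 6.89% in L6, 12.6% in L7 and 12.9% in proximal or urethral luminal-like cells. Amd1 was thus past 1.5-fold lower in set 2 in all 6 of these groups, while Odc1 and Sms were lower in 3 of them. EGFP was higher in set 2 in all 6, at 19.1 against 2.25 UMIs per 10000 in L6, 131 against 44.2 in L1 and 92.7 against 2.70 in the cluster led by Krt6a and Clu, and was not tested as a source of the differences.

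In basal-like cells the direction of Odc1 was the opposite. Set 2 had 267 against 136 CPM of Odc1, a log2 ratio of 0.97 (0.85 to 1.09), and 125 against 77.5 CPM of Srm, a ratio of 0.69 (0.51 to 0.86). These 2 of 9 were called higher, where 9.52% of 8213 features were, and Smox alone was called lower, where 12.4% were, at 81.6 against 140 CPM and -0.78 (-0.98 to -0.58). Amd1 and Azin1 were each at -0.37 and Sms was at -0.03 (-0.27 to 0.20). Sat1 was at 0.29, Oaz1 at 0.19 and Oaz2 at 0.05. The median over the 9 was 0.05, and 0.00 over all features. Basal-like cells of set 2 were shallower, with a median of 5479 UMIs against 10854.

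EGFP, which marks recombination of the mTmG reporter allele in the Osr1 lineage, was used next to split cells within a set. EGFP-high cells had at least 10 EGFP UMIs per 10000 UMIs of the cell and EGFP-low cells had under 1. Leukocyte-like cells, which gave a measure of free RNA, carried an EGFP UMI in 23.8% of 160 cells of set 1 and 85.2% of 237 cells of set 2, with means of 0.933 and 6.90 per 10000. In set 2, levels under 10 per 10000 are therefore no evidence of expression, and 24 leukocyte-like cells passed the limit for EGFP-high. Luminal-like cells gave 406 EGFP-high and 1025 EGFP-low cells in set 1, and 7466 and 68 in set 2.

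In set 1 only Sms was called between EGFP-high and EGFP-low luminal-like cells, at 15.8 against 26.5 CPM. The log2 ratio was -0.75 (-0.97 to -0.54), and 9.38% of 8874 features were called lower. None of the 9 was called higher, where 6.05% of features were. Odc1 and Amd1 were each at -0.35 and Oaz2 at -0.33, and Azin1 at 0.04. Oaz1 was at -0.25, Srm at -0.16, Smox at -0.09 and Sat1 at 0.20. The subclusters differed between the sides, since L1 gave 42.4% of EGFP-high and 5.07% of EGFP-low cells and L6 gave 3.94% and 33.4%. The Sms call was lost without integration of the sets, at -0.25 (-0.71 to 0.18), and with cells of at least 1 EGFP UMI against 0, at -0.41 (-0.58 to -0.24).

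Inside subclusters of set 1, single genes passed. In L5, Sms was at 11.5 against 20.8 CPM (-0.86, -1.42 to -0.32), where 4.97% of features were lower, and Smox was at 28.2 against 12.3 CPM (1.20, 0.77 to 1.63), where 8.54% were higher. In L1, Amd1 was lower at 202 against 317 CPM (-0.65), where 11.3% of features were, and Sms was even at 0.06 (-0.61 to 0.79). In L7, Odc1 was lower at 75.4 against 118 CPM (-0.65), where 9.42% of features were, and Sms was at -0.53. In the cluster led by Krt6a and Clu 0 of 9 were called, where 1.89% of features were lower and 3.27% higher, and Sms was at 0.27 (-0.06 to 0.59). None of the 9 was called higher in L1 or L7, where 4.87% and 6.36% of features were. The lower Sms of EGFP-high cells was thus past the limit in 1 of these 4 groups.

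In set 2, 5 of the 9 genes were called lower in EGFP-high luminal-like cells, where 25.4% of 8763 features were, and 0 higher, where 18.8% were. Sms was at 4.19 against 50.1 CPM, a log2 ratio of -3.58 (-3.92 to -3.23). Odc1 was at 45.0 against 131 CPM (-1.55), Azin1 at 267 against 548 CPM (-1.04), Srm at 106 against 176 CPM (-0.74) and Amd1 at 96.3 against 156 CPM (-0.70). Sat1 was at 0.54 (0.43 to 0.66), just under the limit. It passed at 0.59 with every cell weighing the same, without integration and with the split after thinning, and at 0.76 when cells were split by ARQ. The split after thinning cut each cell to 3000 UMIs and set 2 or more EGFP UMIs against 0, a looser limit. Smox was at 0.43 (-0.11 to 1.03), and it reached 0.61 with every cell weighing the same and passed at 0.71 without integration. With every cell weighing the same no interval was computed, so only the 1.5-fold limit was checked there, for Sat1 too. Oaz2 was at -0.42 and Oaz1 at 0.11. Another scaling, which left out features over 1% of the UMIs, moved the median of all features in this comparison by -0.10.

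The EGFP-low side of set 2 was small and came mostly from 1 subcluster, since 52 of its 68 cells were in L6 and 11 in L8. L6 gave 1.23% of the EGFP-high cells. Inside L6, where 92 EGFP-high and 52 EGFP-low cells could be compared, 0 of 9 genes were called, and 2.04% of 8485 features were lower and 4.70% higher. Sms was at 43.2 against 59.3 CPM (-0.46, -0.89 to -0.02), Odc1 at 117 against 141 CPM (-0.27) and Azin1 at 476 against 509 CPM (-0.09). The -3.58 of Sms over the whole class was therefore not present at that size between EGFP-high and EGFP-low cells of L6, and outside L6 only 16 EGFP-low cells were left, too few to compare.

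**Figure D4:**
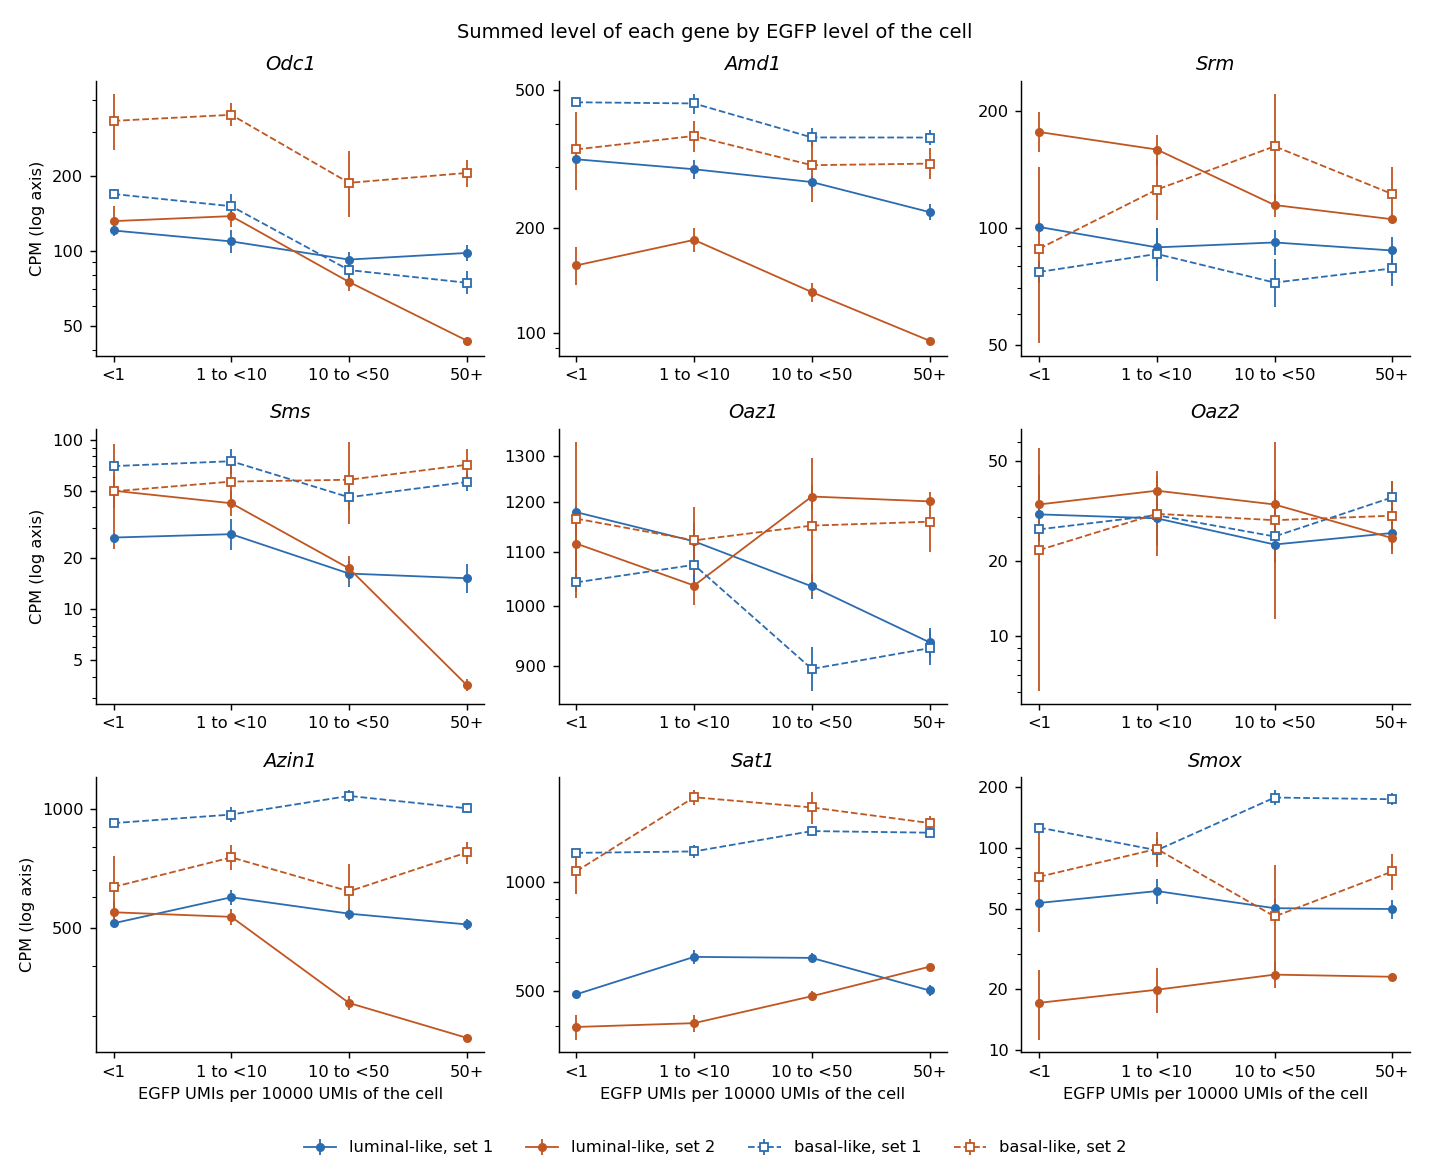
Level of each gene in CPM (log axis) in 4 bands of EGFP level of the cell (UMIs per 10000) for luminal-like (filled circles, solid lines) and basal-like cells (open squares, dashed lines) of barcode set 1 (blue) and set 2 (orange), with exact Poisson 95% intervals. Sms in luminal-like cells of set 2 went from 50.1 through 42.3 and 17.4 to 3.57 CPM over the bands, and Odc1 in basal-like cells of set 1 from 169 through 151 and 83.6 to 74.4 CPM.

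In basal-like cells of set 1, Odc1 was the one gene of the 9 called between EGFP-high (478 cells) and EGFP-low (1022 cells). It was at 77.9 against 169 CPM, a log2 ratio of -1.12 (-1.25 to -0.98), and 7.62% of 8072 features were called lower and 6.70% higher. Smox was at 0.48 (0.37 to 0.58), Sms at -0.42 (-0.59 to -0.25) and Amd1 at -0.34. The others lay between -0.19 for Oaz1 and 0.25 for Oaz2, with Srm at -0.01, Azin1 at 0.16 and Sat1 at 0.19. The main split of set 2 left 27 EGFP-low basal-like cells, too few for a ratio. A looser split was taken with each cell thinned to 3000 UMIs, at 2 or more EGFP UMIs against 0. It gave 217 against 57 cells of set 2 and 215 against 381 CPM of Odc1, a log2 ratio of -0.82 (-1.09 to -0.56). The other 8 genes were inside the 1.5-fold limit. The high side of this split reaches below 10 EGFP UMIs per 10000, so it can hold cells at the level of free RNA. Under that split 3.02% of 8155 features were lower and 3.21% higher. Proximal or urethral luminal-like cells of set 1 held 18 EGFP-high cells and were compared only as cells with at least 1 EGFP UMI (88) against cells with 0 (93), where log2 ratios of the 9 genes lay between -0.24 and 0.34. There 0 of the 9 were called, and 2.95% of features were lower and 1.58% higher.

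A list of 29 other genes of the pathway was read beside the 9, covering substrate supply, salvage of methylthioadenosine (the by-product of Srm and Sms), the hypusine route that uses spermidine, transport and other enzymes. Between luminal-like and basal-like cells, 7 of 19 tested were higher and 4 lower in each set. Over all features 35.5% and 34.5% were higher and 24.9% and 28.7% lower in sets 1 and 2. The highest in set 1 were Adi1 (16.0 against 1.21 CPM, 3.72) and Arg2 (46.7 against 6.20 CPM, 2.91), an enzyme of salvage and an arginase that makes ornithine. The lowest were Mtap (23.5 against 50.1 CPM, -1.10), the first enzyme of salvage, and Mat2a (243 against 509 CPM, -1.06), which makes S-adenosylmethionine. In set 2 the highest were Paox (3.75, 1.90 to 6.80, from 10.2 against 0.756 CPM) and Mri1 (2.29), and the lowest were Mat2a (-2.76) and Mtap (-1.81). The Paox ratio rests on 2 UMIs in the 361 basal-like cells, so its size is uncertain. Mat2a and Mtap were thus among the 4 genes of the list lower in luminal-like cells in each set, while 7 were higher in each.

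Between the sets, 1 of 19 tested genes of this list was higher and 4 were lower in luminal-like cells of set 2, where 16.7% and 27.1% of all features were. Mri1 was at 73.8 against 46.0 CPM (0.68), while Apip, another salvage enzyme, was at 11.2 against 40.3 CPM (-1.85) and Mtap at 10.5 against 23.5 CPM (-1.16). In basal-like cells 6 of 17 were higher and 2 lower, where 9.52% and 12.4% of all features were. Apip was at 15.5 against 8.63 CPM (0.84), the arginine carrier Slc7a1 at 221 against 125 CPM (0.83), Mat2b at 36.3 against 71.2 CPM (-0.97) and Ass1 at 8.31 against 13.3 CPM (-0.67).

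By EGFP, 0 of 19 were higher and 2 lower in luminal-like cells of set 1, the polyamine transporter Atp13a3 at 61.4 against 129 CPM (-1.07) and Ass1 at 5.82 against 10.5 CPM (-0.85). Over all features 6.05% were higher and 9.38% lower. In set 2, 2 of 20 were higher, Eif5a at 1502 against 912 CPM (0.72), the protein that carries hypusine, and Mri1 (0.63), and 5 were lower, led by Apip (-1.41) and Arg2 (-1.14), beside 18.8% and 25.4% of all features. In basal-like cells of set 1, 2 of 17 were higher, Atp13a2 (1.03) and Mri1 (0.73), and 2 were lower, Ass1 (-1.07) and Mtap (-0.76), beside 6.70% and 7.62% of all features.

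Likeness of pattern was measured as Pearson's r of log2(CPM + 10) over 28 clusters or subclusters of at least 50 cells in a set, which share libraries and differ in depth. Among 5870 features of at least 20 CPM, Odc1 was most like Degs1 (0.91), Jak1 (0.89) and Skil (0.89), and Sms was most like Stx6 (0.89), Srsf3 (0.88) and Degs1 (0.87). Amd1 was most like Fdx1 (0.87), Foxq1 (0.85) and Phlda2 (0.85), and Azin1 most like Itpkc (0.92), Sgms2 (0.86) and Nipal1 (0.86). Oaz2 was nearest to Gng11 (0.95), Rhoj (0.94) and Col4a2 (0.93), which are expressed in endothelium. Srm was nearest to Mrps28 (0.87), Sat1 to Luzp1 (0.85), Smox to Ppp4r2 (0.81) and Oaz1 to Rnf187 (0.81). Among the 9, Odc1 and Sms were at 0.86, Amd1 and Azin1 at 0.80 and Srm and Smox at -0.75. These values describe the units and carry no test.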

How the data were processed

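Per the labels, 1 PIN and 1 PCa library were made with 10x Genomics 3' v2 chemistry. The study's methods state that Cell Ranger (3.1.0 in the submitters' processing notes) counted UMIs against mm10 with the mGFP and hARtg sequences added, and that multiplets, empty droplets and dying cells with much mitochondrial RNA were removed. Though the deposited table is named as counts, it holds natural log values, each ln(1 + 10000 × UMIs / total of the cell). Whole UMIs were recovered for 100% of values, within 0.001. Set 1 held as many cells as the methods state for PIN, and set 2 held 2 fewer than stated for PCa, but this was not used to assign cells.

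Doublets were called with Scrublet (scanpy 1.11.5) at a score of 0.25, set after its automatic limit called 0 cells. Seurat 5.3.0 clustered the cells after anchor integration (20 dimensions, 30 principal components, 2000 features, resolution 0.5), with 40 polyamine, EGFP and ARQ features kept out. A cluster was named when at least 3 markers of a class were seen in 25% of its cells and no rule on leading genes or depth barred it. UMIs were summed per group and scaled to CPM. Ratios needed 50 cells on each side, a sum of 0 was set to 3 UMIs, and features with at least 5 CPM on average were tested. Intervals were checked on simulated data. All 9 genes were named in each comparison of classes, of sets within a class and of EGFP sides within a class. Of the wider list, the 2 highest and 2 lowest called genes were named. The members and lists were chosen with earlier results of these data known. No p-value was computed, since each set is 1 library. Gene positions and promoters came from RefSeq in GRCm38.p6.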

Additional observations from a re-analysis of the deposited data

Results flagged for a closer look

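Oaz1 differed in direction between the sets. Between EGFP-high and EGFP-low luminal-like cells its log2 ratio was -0.25 in set 1 and 0.11 in set 2, each with a counting interval that left out 0, a gap of 0.36. Both values lie inside the 1.5-fold limit, and the difference between the sets was not tested, since each set is 1 library.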

How the results depend on the processing

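No paired analysis was possible because PIN and PCa have 1 library each, and no replicate could be left out. Of 450 values of single genes under other settings (another scaling, equal weight for each cell, doublets kept, no integration, resolution 1.0, other EGFP or ARQ splits, subclusters left out), 328 stayed within their interval, 122 moved outside it and 0 reversed a call. Counts of called genes moved in 7 of 106 cases. For EGFP-high against EGFP-low luminal-like cells of set 2, the genes called higher went from 0 to 2 (Sat1 and Smox) without integration. They went to 1 (Sat1) with the split after thinning and with the split by ARQ. With every cell weighing the same, Sat1 and Smox passed the 1.5-fold limit. In that setting no interval was computed, and its counts rest on the fold alone. The split by ARQ and leaving out L7 or the subcluster led by leukocyte genes were chosen after seeing the data. So was the comparison outside the subcluster with most EGFP-low cells. The comparisons of sets and of EGFP sides inside subclusters, and of L6 with other luminal-like cells, were also not planned. Leaving out L7 changed no count of called genes. For the same comparison in set 1, Sms was no longer called without integration or with cells of at least 1 EGFP UMI against 0, which left 0 genes lower. Without integration, 1 gene in place of 4 spanned 2-fold over the subclusters of set 1. The cause was not tested. Without the filter on low levels, the features lower in luminal-like cells of set 2 went from 2426 of 8944 to 5209 of 17334, and those higher from 1494 to 3069. The number of cells limits the comparison with the 68 EGFP-low luminal-like cells of set 2, of which 52 were in L6. The alternatives for EGFP in set 2 with 17 and 16 cells on one side, for basal-like cells of set 2 with 22 and for proximal or urethral luminal-like cells with 18 were not run.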
